A study of Mus musculus with 19 samples.

Results

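The comparison described here was between spleen cDC1 of mice lacking both Xbp1 and IRE1 (Xbp1-Ire1 KO, 3 libraries) and spleen cDC1 of mice lacking Xbp1 alone (Xbp1 KO, 3 libraries), chosen by cell type and genotype, so 6 of the series' 19 libraries are its members. All were bulk RNA-seq libraries of conventional dendritic cells (cDC), sorted from the spleen of C57BL6 mice as cDC1 or cDC2. Both compared groups lack Xbp1, and they differ by the added loss of the IRE1 gene, Ern1. Beside them stand 3 cDC1 libraries labelled WT, 2 of which are described as floxed at both genes (fl-fl) and 1 as WT, and 6 cDC2 libraries of the same pair of knockout genotypes. The labels name neither the deleted exons nor the Cre that deletes them, and give no age, sex or treatment. They also do not say that replicates were separate mice, so every p-value below measures how far these samples spread, and that spread may be technical.

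IRE1 is a transmembrane sensor of the endoplasmic reticulum (ER). When unfolded protein accumulates, its cytosolic RNase cuts an intron out of the Xbp1 mRNA, and the spliced mRNA encodes XBP1s, a transcription factor for chaperones, ER-associated degradation and secretory-pathway genes. The same RNase can degrade other mRNAs, a process called regulated IRE1-dependent decay (RIDD), and in cDC1 that lack XBP1 it is known to be overactive. A contrast of cells lacking both genes with cells lacking Xbp1 alone asks which transcripts depend on IRE1 when XBP1s cannot be made. Parallel arms of the unfolded protein response run through PERK, which favours translation of ATF4 and thereby induction of CHOP, and through ATF6. cDC1 are the dendritic cells that take up dying cells and cross-present their antigens to CD8 T cells.

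Library totals, in units of 1e6 counts, were 10.98 to 12.24 in Xbp1 KO, 11.27 to 16.21 in Xbp1-Ire1 KO and 12.76 to 13.73 in WT. In the 6 compared libraries Xcr1, the cDC1 chemokine receptor, ranged from 896 to 1281 counts per 1e6 counts (CPM), and Clec4a4, a cDC2 lectin, did not exceed 0.547 CPM. Other cDC2 markers were not at 0 there: Sirpa ranged from 5.31 to 68.0 CPM, beside 1275 to 1680.3 CPM in the 10 cDC2 libraries, Cd4 from 1.78 to 12.5 CPM and Irf4 from 2.48 to 10.9 CPM. Xbp1 KO replicate 3 stood apart by pancreatic acinar transcripts, which summed to 2463 CPM there and to 4.06 to 11.8 CPM in the other 5 compared libraries. Replicate 2 of both groups stood apart by red pulp macrophage markers, which summed to 966 CPM in Xbp1 KO and 788 CPM in Xbp1-Ire1 KO, beside 181 to 456 CPM in the other 4, and Sirpa was highest in the same pair (68.0 and 62.6 CPM). The mean log2 CPM of immediate early genes, a class switched on within minutes by stimuli that include cell handling, was 8.87 to 9.13 in Xbp1 KO, 7.85 to 8.25 in Xbp1-Ire1 KO and 7.62 to 8.59 in WT. WT replicate 3, the library described as WT, gave the 8.59 and stood apart from the floxed pair. Its lysosomal transcripts summed to 29150 CPM, beside 42280 and 42100 CPM. The mean chi-square per gene of its counts against each floxed library was 75.37 and 72.05. That value was 13.65 between the floxed pair and 9.18 to 37.66 within the compared groups. The WT values below include this library, and its part in them was not tested. CPM values of genes below are scaled by TMM within the cell type, log2 fold changes are Xbp1-Ire1 KO minus Xbp1 KO with their standard error, n = 3 and 3, and adjusted p-values come from the quasi-likelihood test of edgeR, adjusted over all tested genes after Benjamini and Hochberg. A gene is said to have risen or fallen where its adjusted p was under 0.05. These are bulk samples, so fewer cells of a type and less RNA per cell cannot be told apart.

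Loss of IRE1 on top of XBP1 went with changes of the cDC1 transcriptome in both directions, and more of the large changes were increases. Of 11353 tested genes 1437 changed (12.7%), of which 810 rose (7.13% of tested) and 627 fell (5.52%). Among them 311 rose and 142 fell by over 2-fold, and 41 rose and 6 fell by over 8-fold. The median log2 fold change over all tested genes was 0.02. The count depended on single libraries: it was 658 without Xbp1 KO replicate 1, 648 without Xbp1 KO replicate 2, 709 without Xbp1-Ire1 KO replicate 1 and 778 without Xbp1-Ire1 KO replicate 3. Without Xbp1 KO replicate 3, the library with pancreatic transcripts, it was 1297, and without Xbp1-Ire1 KO replicate 2 it was 1221. Each of these fits also has 1 library fewer, and how much of the drop that alone gives was not tested. With the compared groups fitted alone, without WT, the count was 2239. Of these 1077 rose and 1162 fell, so the excess of raised genes was not seen in that fit. Of the raised genes 314 and of the lowered genes 197 passed in every fit that left out 1 library.

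**Figure D1:**
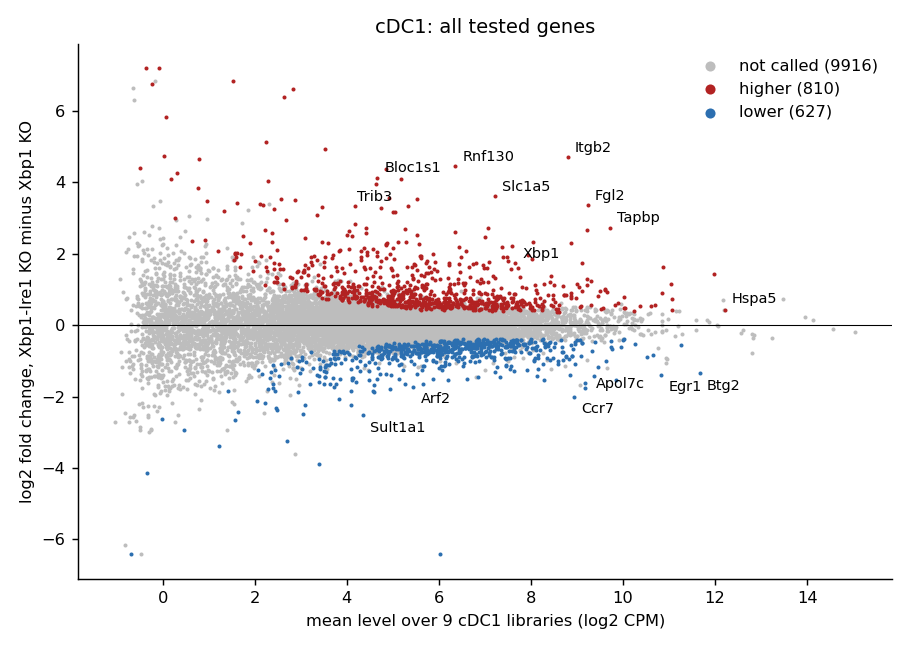
Each point is a tested gene in cDC1, by its mean log2 CPM (horizontal) and its log2 fold change, Xbp1-Ire1 KO minus Xbp1 KO (vertical); coloured points are the 810 genes that rose and the 627 that fell, grey points the others. The plot names genes of several groups, and the raised points reach further from 0 than the lowered points.

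The gene of IRE1 itself, Ern1 (ENSMUSG00000020715; GRCm38 chromosome 11, 106394650 to 106487852), was counted at 31.8, 33.1 and 26.7 CPM per Xbp1 KO library and 71.3, 60.6 and 50.5 CPM per Xbp1-Ire1 KO library, a rise of 0.99 ± 0.17 on the log2 scale (adjusted p = 0.00235). The groups did not overlap, and WT lay at 22.4, 29.0 and 23.3 CPM, near Xbp1 KO. Its substrate Xbp1 (ENSMUSG00000020484; GRCm38 chromosome 11, 5520659 to 5525893) was counted at 95.1, 89.7 and 113 CPM in Xbp1 KO against 353, 337 and 301 CPM in Xbp1-Ire1 KO (1.73 ± 0.18, adjusted p = 3.66e-05), with WT between them at 233, 145 and 143 CPM. A count over the whole gene takes in transcripts without the deleted exons, so neither gene's values speak for or against the knockout labels. In the set of 8 ER stress sensors and eIF2α kinases, 4 rose and 0 fell, with a median log2 fold change of 0.42. The called share was 50%, beside 12.7% of all tested genes. Those that rose were Ern1 and Xbp1, which are the targeted genes themselves, Atf6b and Eif2ak3, the gene of PERK. The call of Eif2ak3 was lost in 5 of the fits that left out 1 library, all but that without Xbp1-Ire1 KO replicate 1 (adjusted p = 0.0626 to 0.135). Atf6b, a membrane-bound relative of ATF6, rose from 61.9 ± 6.77 CPM (SD, n = 3) to 144 ± 21.2 CPM (1.22 ± 0.15, adjusted p = 1.60e-04), beside 164 ± 22.1 CPM in WT.

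The pair of sites at which IRE1 cuts Xbp1 mRNA is shown because CTGCAG is the sequence looked for in other transcripts below. It lies in the coding sequence on chromosome 11 (chr11:5524261-5524322, plus strand, GRCm38, from GENCODE M21), and the capitals mark CCGCAG and CTGCAG, whose starts are 26 bases apart.
Xbp1: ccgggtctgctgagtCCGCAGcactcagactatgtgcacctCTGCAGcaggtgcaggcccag

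Most reported substrates of the IRE1 RNase were higher where IRE1 was lost too. Of 14 listed 9 passed the filter on low counts, and of these 6 rose and 1 fell, with a median log2 fold change of 2.72 beside 0.02 for all tested genes. In 6 of the 9 the Xbp1 KO mean lay over 2-fold below the WT mean, and in 8 of the 9 the Xbp1-Ire1 KO mean lay within 2-fold of it. Some members are known as substrates from cDC1 that lack XBP1, so their direction here is not independent evidence.

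Itgb2, the beta 2 integrin chain CD18 that pairs with CD11a, CD11b and CD11c (ENSMUSG00000000290; GRCm38 chromosome 10, 77530252 to 77565708), gave 33.4, 37.1 and 32.1 CPM in Xbp1 KO against 829, 938 and 885 CPM in Xbp1-Ire1 KO. The groups were far apart, and Xbp1-Ire1 KO also lay above the WT libraries at 542, 389 and 317 CPM. Its log2 fold change was 4.69 ± 0.19, adjusted p = 1.16e-08, a 25.9-fold rise.

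Bloc1s1, a subunit of the BLOC-1 complex of lysosome-related organelles (chromosome 10, 128917882 to 128924035), gave 1.96, 2.98 and 2.48 CPM in Xbp1 KO against 52.1, 32.0 and 45.2 CPM in Xbp1-Ire1 KO (4.12 ± 0.25, adjusted p = 3.01e-07). Its WT values were 31.8, 25.3 and 31.9 CPM, between the knockout groups. Hgsnat, a lysosomal acetyltransferase of heparan sulfate breakdown, rose from 4.48, 4.64 and 4.29 CPM to 45.8, 44.6 and 39.1 CPM (3.27 ± 0.18, adjusted p = 1.86e-07). Tapbp, the tapasin that loads peptide onto MHC class I, gave 166, 173 and 117 CPM in Xbp1 KO against 952, 1064 and 993 CPM in Xbp1-Ire1 KO, beside 1742, 1401 and 968 CPM in WT (2.72 ± 0.21, adjusted p = 1.98e-06). In each of the 3 genes the knockout groups did not overlap.

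Erp44, an ER thiol-retention protein, rose from 29.6 to 195 CPM (2.72 ± 0.16, adjusted p = 3.01e-07) and Ergic3, a protein of the ER-Golgi intermediate compartment, from 17.3 to 66.5 CPM (1.95 ± 0.16, adjusted p = 2.87e-06). The 3 remaining tested members, Galnt10, Sparc and Per1, did not rise. Galnt10, a mucin-type glycosyltransferase, differed by 0.05 ± 0.17 (95% interval −0.31 to 0.42). Per1, a clock gene, fell by 0.85 on the log2 scale from 40.4 to 22.4 CPM (adjusted p = 0.0157), and its call was lost without Xbp1 KO replicate 1 (adjusted p = 0.0586), Xbp1 KO replicate 2 (adjusted p = 0.0752) or Xbp1-Ire1 KO replicate 1 (adjusted p = 0.0681).

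**Figure D2:**
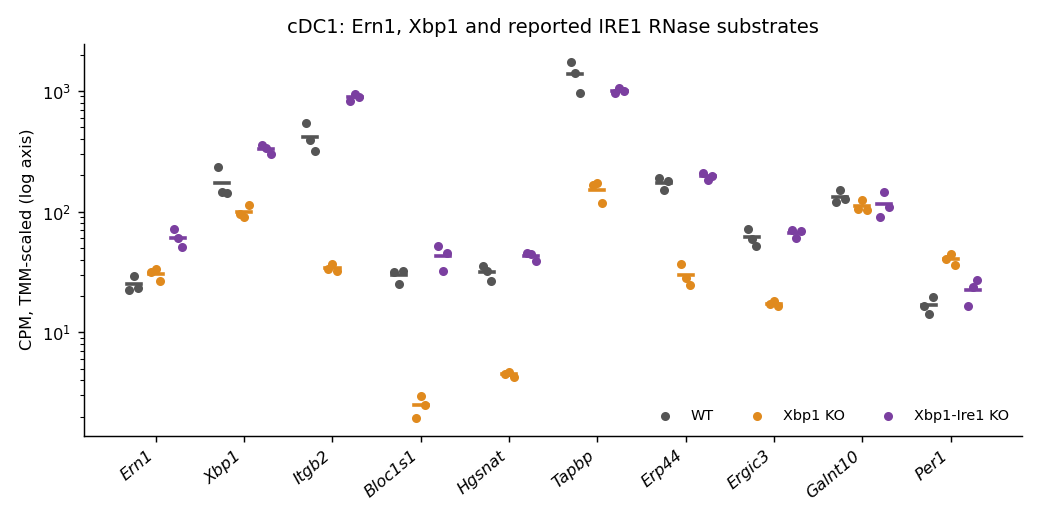
Each point is 1 library's TMM-scaled CPM (log10 axis) for Ern1, Xbp1 and 8 of the tested IRE1 substrates, by genotype, with a bar at the group mean. For Itgb2, Bloc1s1, Hgsnat and Tapbp the 3 Xbp1 KO points lie below all WT and Xbp1-Ire1 KO points.

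Windows of the spliced coding sequences around CTGCAG are shown for the 4 substrates given above by library, 1 per line in transcript sense, with the hexamer in capitals (GRCm38, GENCODE M21). They lie at chr10:77547245-77547274, plus strand (Itgb2 a), chr10:77557449-77557478, plus strand (Itgb2 b), chr10:128922685-128922714, minus strand (Bloc1s1 a), chr10:128920000-128920029, minus strand (Bloc1s1 b), chr8:25971589-25971618, minus strand (Hgsnat a), chr8:25955740-25955769, minus strand (Hgsnat b) and chr17:33926223-33926252, plus strand (Tapbp).
Itgb2 a: ggcggggacttgCTGCAGgccctcaacgag
Itgb2 b: ctatgactccttCTGCAGtaatggagcatc
Bloc1s1 a: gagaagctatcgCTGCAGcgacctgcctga
Bloc1s1 b: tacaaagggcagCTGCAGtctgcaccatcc
Hgsnat a: catgggtccatcCTGCAGgttaactccacc
Hgsnat b: atccctggtgtcCTGCAGcggttgggagtg
Tapbp: cagtctgggcacCTGCAGctacctccagtc
The hexamer is common: 85.74% of 10615 tested genes with an annotated transcript held it, as did 83.50% of the raised genes and 91.06% of the lowered genes. The sets differ in transcript length, with medians of 2990 bases for all, 2176.5 for raised and 4768 for lowered genes. Per kilobase of transcript the order was the reverse, at 0.987 copies in raised, 0.868 in all and 0.783 in lowered genes. Within coding sequence 6 of the 9 tested substrates held it (66.67%), beside 70.64% of all tested genes. Per kilobase of coding sequence the substrates held 1.40 copies, beside 1.13 in all tested genes. The Itgb2 transcript held 5 copies, the Bloc1s1 transcript 4 and the Ergic3 transcript 0. A match describes these letters and is not evidence of a cut.

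Other genes outside the substrate list rose as much. Rnf130, a membrane-bound ubiquitin ligase (chromosome 11, 50025346 to 50104758), gave 7.34, 9.02 and 5.94 CPM in Xbp1 KO against 163, 141 and 182 CPM in Xbp1-Ire1 KO (4.44 ± 0.18, adjusted p = 1.16e-08). WT lay between them at 84.0, 68.4 and 72.9 CPM, and its transcript held no CTGCAG. Pbxip1, a PBX-interacting protein, rose from 3.10, 5.52 and 3.38 to 67.4, 63.6 and 72.3 CPM (4.08 ± 0.24, adjusted p = 2.39e-07), and its transcript held 10 copies.

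Further raised genes with large changes follow. Fcrla, an Fc receptor-like protein, rose by 4.38 ± 0.41 to 39.2 CPM, Tmem238 by 4.93 ± 0.39 to 22.4 CPM and Fam134c, a receptor of ER-phagy, by 3.94 ± 0.43 to 46.2 CPM. Fgl2, a fibrinogen-like secreted protein, gave 136, 87.3 and 93.2 CPM in Xbp1 KO against 1276, 952 and 1007 CPM in Xbp1-Ire1 KO (3.35 ± 0.18, adjusted p = 1.76e-07), and Cd81, a tetraspanin, rose from 120.0, 156 and 113 to 934, 753 and 761 CPM (2.65 ± 0.21, adjusted p = 2.22e-06). Notch4, a Notch receptor with 12 CTGCAG copies in its transcript, rose by 2.61 ± 0.19 to 119 CPM, beside 105 CPM in WT. In these 3 genes the knockout groups did not overlap.

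A few raised genes were scarce in WT. Cox6a2, a cytochrome c oxidase subunit also counted here as a plasmacytoid dendritic cell marker, gave 5.22, 5.69 and 10.3 CPM in Xbp1 KO against 112, 70.5 and 66.3 CPM in Xbp1-Ire1 KO, beside 0.332, 0.302 and 0.628 CPM in WT (3.55 ± 0.29, adjusted p = 3.18e-06). Ptger3, a prostaglandin E receptor, gave 0.163, 0.175 and 0.248 CPM in Xbp1 KO against 23.6, 14.8 and 13.5 CPM in Xbp1-Ire1 KO, with WT at 0.166, 0.227 and 0.550 CPM. Both exceeded WT as well as Xbp1 KO.

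Among integrins and adhesion molecules, 27 were tested, 6 rose and 2 fell (median 0.11); the count that fell was 1 without Xbp1 KO replicate 1, Xbp1 KO replicate 2, Xbp1-Ire1 KO replicate 1 or Xbp1-Ire1 KO replicate 2. Itgal, the CD11a chain that pairs with Itgb2, rose by 0.66 ± 0.13 (adjusted p = 0.00571). Itgae, the CD103 chain of cDC1, fell by 1.01 on the log2 scale, from 115 ± 22.1 to 56.9 ± 13.4 CPM (SD, n = 3, adjusted p = 0.00721). Of the 8 BLOC-1 subunits, 1 rose, which was Bloc1s1, and none fell (median 0.27), so 12.5% were called, beside 12.7% of all tested genes.

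Most tested target genes of ATF4 and CHOP, which are transcription factors downstream of PERK and the other eIF2α kinases, rose in cells that lacked IRE1 as well. Of 35 tested, 21 rose and 0 fell, with a median log2 fold change of 1.31, and 17 to 20 rose in the fits that left out 1 library. Their mean log2 CPM was 3.63 to 3.78 in WT, 4.60 to 4.97 in Xbp1 KO, then 6.03 to 6.27 in Xbp1-Ire1 KO, with no overlap between the 3 genotypes. In 28 of the 35 the Xbp1-Ire1 KO mean exceeded the WT mean by over 2-fold, and in 15 the Xbp1 KO mean did.

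Trib3, a pseudokinase induced by ATF4 and CHOP (chromosome 2, 152337422 to 152344032), gave 9.13, 5.69 and 16.4 CPM in Xbp1 KO against 128, 102 and 85.5 CPM in Xbp1-Ire1 KO, beside 2.57, 3.86 and 2.98 CPM in WT (3.33 ± 0.31, adjusted p = 1.14e-05). Ddit3, the gene of CHOP, and Asns, the asparagine synthetase, were named after their values were seen. Ddit3 lay at 10.9, 12.4 and 21.2 CPM and at 71.3, 50.9 and 47.6 CPM in the same order (1.93 ± 0.30, adjusted p = 0.00112), and Asns rose from 84.8 to 184 CPM (1.12 ± 0.22, adjusted p = 0.00553), against 10.4 CPM in WT. Cebpb, a partner of these factors, rose from 39.9 to 119.7 CPM (1.58 ± 0.15, adjusted p = 1.08e-05).

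The list's amino acid carriers changed in part. Slc1a5, the glutamine carrier ASCT2, gave 22.3, 19.6 and 32.8 CPM in Xbp1 KO against 314, 316 and 278 CPM in Xbp1-Ire1 KO (3.60 ± 0.18, adjusted p = 1.16e-07), a gap many times the spread. Slc1a4, a carrier of alanine, serine and cysteine, rose by 3.16 ± 0.34, and Slc7a5, the large neutral amino acid carrier LAT1, by 1.79 ± 0.22. The remaining carriers on the list follow, of which Slc6a9, Slc7a11 and Slc7a3 were named after their values were seen. Slc6a9, a glycine carrier, rose from 18.1 to 51.1 CPM, and Slc7a11, the cystine carrier xCT, rose by 2.39 ± 0.69 (adjusted p = 0.0373), a call lost by limma-voom and in each of the 6 fits that left out 1 knockout library (adjusted p = 0.0564 to 0.166). Slc3a2, the partner chain of LAT1, differed by 0.02 ± 0.15 (95% interval −0.30 to 0.34), Slc38a2, the carrier SNAT2, by −0.18 ± 0.11 (−0.41 to 0.06) and Slc7a3, a cationic amino acid carrier, by 1.63 ± 0.75 (0.01 to 3.26). These 3 did not pass. Metabolic members rose too: Phgdh, the first enzyme of serine synthesis, by 1.57 ± 0.18, Pck2, the mitochondrial PEPCK, by 1.40 ± 0.15, and Sesn2, a regulator of mTORC1, by 1.24 ± 0.14. Atf3, an inducible stress transcription factor, and Herpud1, a part of ER-associated degradation, did not pass: Atf3 differed by −0.70 ± 0.44 (95% interval −1.64 to 0.24) and Herpud1 by −0.09 ± 0.13 (−0.37 to 0.18).

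Aminoacyl-tRNA synthetases, whose genes ATF4 also induces, had 8 of 20 members that rose and none that fell (median 0.35), and all 20 had positive log2 fold changes. That count was 2 without Xbp1 KO replicate 1, 3 without Xbp1 KO replicate 2, 4 without Xbp1-Ire1 KO replicate 3 and 5 without Xbp1 KO replicate 3 or Xbp1-Ire1 KO replicate 1. Gars, for glycine, rose from 268 ± 2.02 to 449 ± 47.5 CPM (SD, n = 3, 0.75 ± 0.12, adjusted p = 0.00192), and Sars, for serine, rose by 0.69 ± 0.12 (adjusted p = 0.00262). Their WT means were 165 and 105 CPM, below both knockouts.

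The C/EBP-ATF composite element TGATGNAA, a known docking sequence of ATF4, is shown for 5 raised genes whose promoter windows, from 250 bases before to 50 bases after a RefSeq start (GRCm38.p6), held it on either strand. The capitals mark the element, and each window is read on the strand on which it lies, at chr2:152344028-152344057, plus strand (Trib3), chr6:7693214-7693243, minus strand (Asns), chr11:20332699-20332728, plus strand (Slc1a4), chr14:55540143-55540190, minus strand (Pck2) and chr6:55037951-55037998, minus strand (Gars).
Trib3: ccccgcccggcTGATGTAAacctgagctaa
Asns: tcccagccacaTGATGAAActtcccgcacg
Slc1a4: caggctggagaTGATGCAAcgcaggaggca
Pck2: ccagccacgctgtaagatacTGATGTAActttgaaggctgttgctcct
Gars: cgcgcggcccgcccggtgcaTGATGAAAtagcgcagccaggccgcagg
Of 28 members of the ATF4 and CHOP list with a promoter, 10 held the element, as did 5 of 12 synthetases and 244 of all 8742 tested genes with a promoter (2.79%). Among all raised genes 34 of 628 held it (5.41%), and among all lowered genes 25 of 490 (5.10%), so the share over all raised genes was close to that over all lowered genes. Element carriers did not all rise: Atf3 and Herpud1 hold it in their windows.

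**Figure D3:**
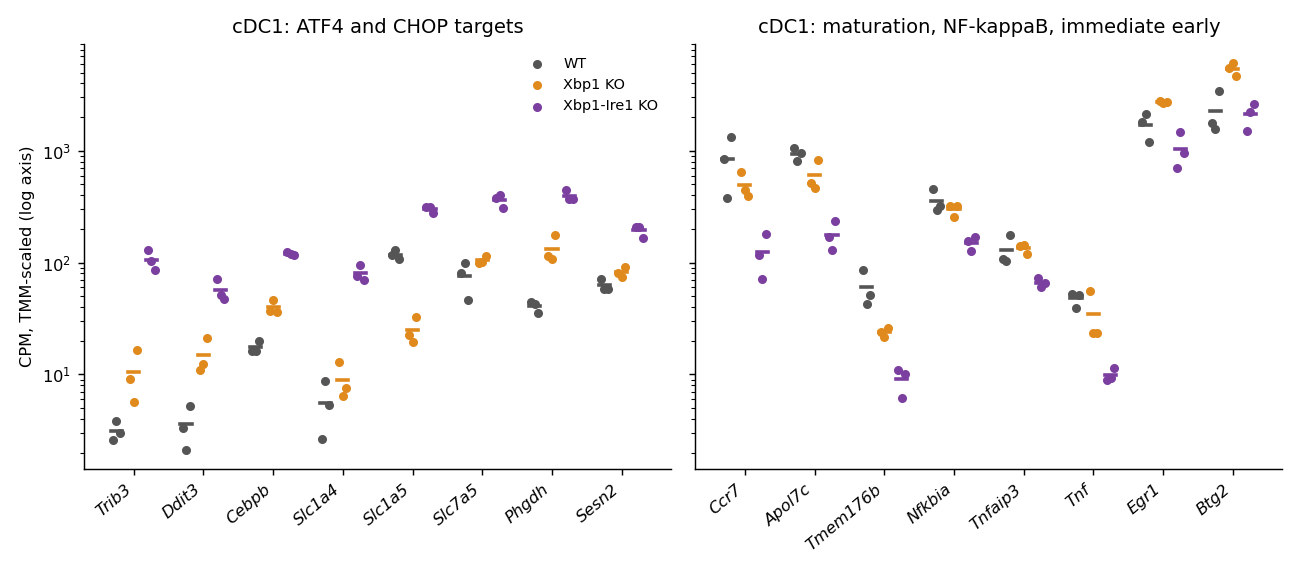
Each point is 1 library's TMM-scaled CPM (log10 axis) for 8 ATF4 and CHOP targets (left) and 8 maturation, NF-kappaB and immediate early genes (right), by genotype, with a bar at the group mean. Trib3 and Ddit3 step up from WT through Xbp1 KO to Xbp1-Ire1 KO, and Ccr7 and Apol7c are lowest in the 3 Xbp1-Ire1 KO libraries.

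Most tested genes of the ER folding machinery rose, between genotypes that both lack Xbp1. Of 31 tested chaperones and disulfide enzymes, 20 rose and 1 fell, with a median log2 fold change of 0.73. The member that fell was Ero1lb, a disulfide oxidase named after its values were seen (−0.58 ± 0.11, adjusted p = 0.00561), and the count that fell was 2 with no filter or without Xbp1 KO replicate 3 and 3 by DESeq2 or with the compared groups alone. Xbp1-Ire1 KO means lay within 2-fold of WT for 24 of the 31.

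Dnajb11, an HSP40 co-chaperone, gave 58.1, 68.1 and 62.2 CPM in Xbp1 KO against 300.1, 282 and 272 CPM in Xbp1-Ire1 KO, beside 156, 142 and 156 CPM in WT (2.18 ± 0.12, adjusted p = 1.76e-07). Hyou1, an HSP70-like chaperone, rose from 37.8 to 142 CPM (1.91 ± 0.19, adjusted p = 1.66e-05), and Tmx3, a membrane thioredoxin, by 1.69 ± 0.16. Of the protein disulfide isomerases, P4hb rose by 1.25 ± 0.11, Pdia3 by 1.15 ± 0.11, Pdia4 by 1.09 ± 0.13 and, named after its values were seen, Pdia6 by 0.92 ± 0.12. Pdia5, another isomerase, and Tmx1, a thioredoxin-related membrane protein, did not pass: Pdia5 differed by 0.20 ± 0.13 (95% interval −0.09 to 0.49) and Tmx1 by −0.11 ± 0.15 (−0.42 to 0.21). Pdia3, which serves MHC class I loading, gave 1516, 1444 and 1468 CPM in Xbp1 KO against 3487, 3126 and 3233 CPM in Xbp1-Ire1 KO, without overlap.

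Among lectin and HSP90 chaperones, Calr, for calreticulin, gave 1473, 1365 and 1449.9 CPM in Xbp1 KO against 2857, 2630.4 and 2513 CPM in Xbp1-Ire1 KO (0.90 ± 0.11, adjusted p = 1.26e-04). Hsp90b1, for GRP94, rose by 0.74 ± 0.14 and Creld2, a disulfide isomerase-like protein, by 1.19 ± 0.12. Canx, for calnexin, rose by 0.61 ± 0.15 (adjusted p = 0.0207), a call lost without Xbp1 KO replicate 1 (adjusted p = 0.118), Xbp1 KO replicate 2 (0.0951), Xbp1-Ire1 KO replicate 1 (0.0783) or Xbp1-Ire1 KO replicate 3 (0.0538). Dnajc3, the PERK inhibitor p58IPK, named after its values were seen, rose by 0.55 ± 0.12 (adjusted p = 0.0123), which was lost without Xbp1 KO replicate 1 (0.0705), Xbp1 KO replicate 2 (0.0503) or Xbp1-Ire1 KO replicate 3 (0.0559). Hspa5, the main ER chaperone BiP, did not pass, at 5302, 4960.4 and 5433 CPM in Xbp1 KO against 7474, 6345 and 7044 CPM in Xbp1-Ire1 KO (0.41 ± 0.19, adjusted p = 0.169, 95% interval 0.01 to 0.82), though it did with the compared groups alone (adjusted p = 0.0122). Both groups lay above its WT values of 1439.8, 1618 and 2703 CPM.

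The ER stress response element, CCAAT and CCACG with 9 bases between, is the known binding sequence of ATF6 and XBP1 with NF-Y in chaperone promoters, and is shown for 6 chaperone genes with both parts in capitals (RefSeq promoters, GRCm38.p6). The windows lie at chr2:34772005-34772063, plus strand (Hspa5), chr10:86705513-86705571, plus strand (Hsp90b1), chr8:84847055-84847113, plus strand (Calr), chr11:50325780-50325838, minus strand (Canx), chr12:17266471-17266529, plus strand (Pdia6) and chr15:88819500-88819558, minus strand (Creld2), each read on the strand of the element.
Hspa5: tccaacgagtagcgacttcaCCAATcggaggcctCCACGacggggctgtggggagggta
Hsp90b1: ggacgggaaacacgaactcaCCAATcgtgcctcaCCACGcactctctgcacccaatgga
Calr: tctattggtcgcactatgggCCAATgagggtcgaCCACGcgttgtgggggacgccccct
Canx: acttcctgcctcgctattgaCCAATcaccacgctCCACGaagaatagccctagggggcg
Pdia6: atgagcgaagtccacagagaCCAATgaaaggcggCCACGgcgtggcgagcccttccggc
Creld2: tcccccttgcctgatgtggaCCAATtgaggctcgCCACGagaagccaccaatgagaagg
This exact spacing was rare, in 16 of 8742 promoters (0.18%), and stood in 7 of 24 promoters of the chaperone list. Of the 16 carriers 7 rose, which were 1.11% of the 628 raised genes with a promoter, and 0 of 490 lowered genes carried it. The 7 were Calr, Canx, Creld2, Derl3, Dnajc3, Hsp90b1 and Pdia6, while Hspa5 carried it and did not pass.

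The lists further along the secretory pathway are read against the 12.7% called among all tested genes: 12% of translocon and signal peptidase genes, 21.9% of N-glycosylation genes, 26.9% of genes of ER-associated degradation and 11.9% of ER to Golgi transport genes were called. Of 25 translocon and signal peptidase genes, 3 rose and none fell (median 0.20), a count that was 1 without Xbp1 KO replicate 1, Xbp1 KO replicate 2, Xbp1-Ire1 KO replicate 1 or Xbp1-Ire1 KO replicate 3 and 5 without Xbp1-Ire1 KO replicate 2. Those that rose were signal peptidase subunits: Sec11c, Spcs2 and Spcs3. Spcs3 rose by 0.89 ± 0.12 and Sec61a1, the channel itself, differed by 0.20 ± 0.14 (adjusted p = 0.39). In N-glycosylation 7 of 32 rose (median 0.26), a number that was 4 without Xbp1 KO replicate 1. They included oligosaccharyltransferase subunits, of which Rpn1 gave 81.6, 70.1 and 68.8 CPM in Xbp1 KO against 346, 392 and 359 CPM in Xbp1-Ire1 KO, beside 433, 327 and 303 CPM in WT (2.31 ± 0.15, adjusted p = 6.42e-07). Rpn2 rose by 1.13 ± 0.17, Ddost by 0.86 ± 0.15 and Alg1, a mannosyltransferase of the lipid-linked sugar, by 2.83 ± 0.22 from 3.73 to 26.5 CPM.

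In ER-associated degradation 7 of 26 rose and none fell (median 0.07). The number that rose was 4 without Xbp1 KO replicate 2, and the number that fell was 1 by DESeq2. Derl3, a derlin of the retrotranslocation complex, rose from 5.54, 5.78 and 6.44 to 35.4, 32.8 and 31.8 CPM (2.49 ± 0.20, adjusted p = 3.04e-06). Vimp, a selenoprotein of the same complex, rose by 0.98 ± 0.13, and the mannose-trimming proteins Man1b1 and Edem1 rose by 0.95 ± 0.13 and 0.67 ± 0.14. Of 42 ER to Golgi transport genes 4 rose and 1 fell (median 0.03); the number that rose was 2 without Xbp1 KO replicate 1 or Xbp1 KO replicate 2 and 7 with the compared groups alone, and the number that fell was 0 without Xbp1 KO replicate 2, Xbp1-Ire1 KO replicate 1 or Xbp1-Ire1 KO replicate 3, 2 by DESeq2 or without Xbp1-Ire1 KO replicate 2 and 3 with the compared groups alone.

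**Figure D4:**
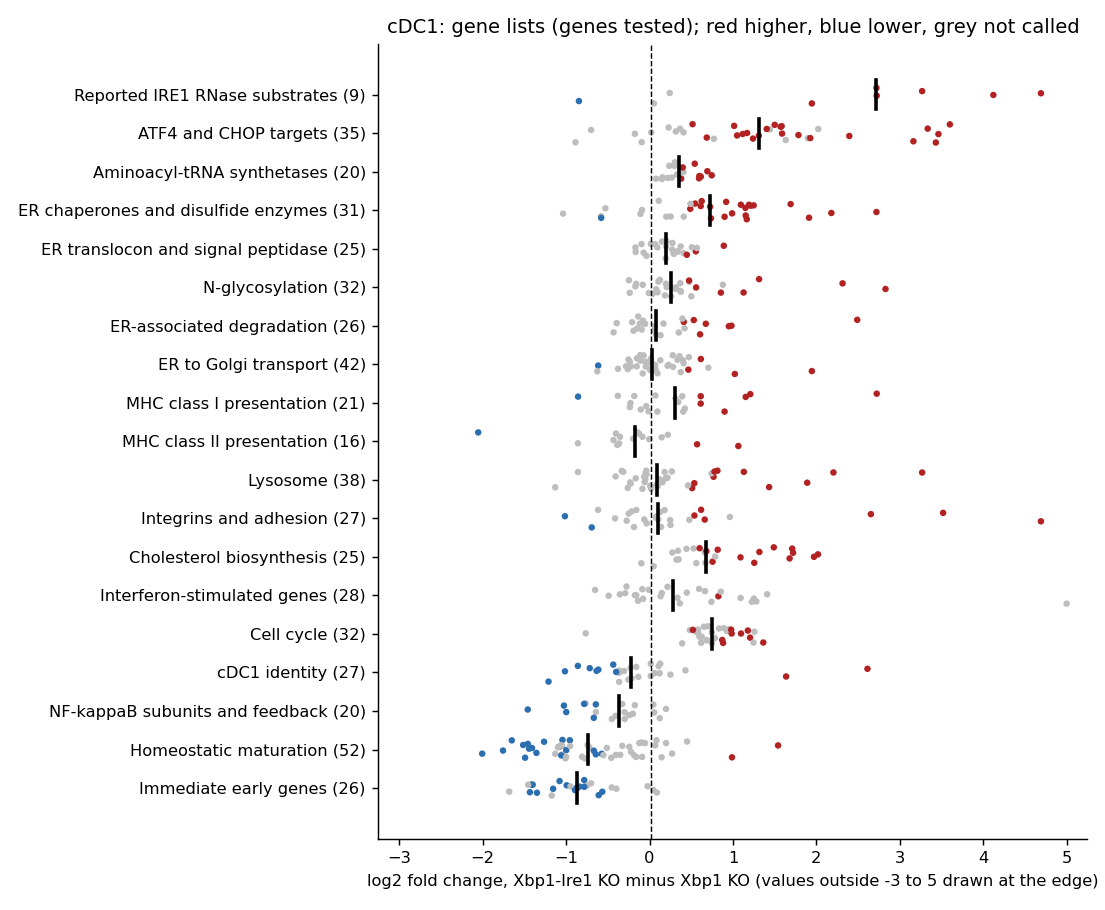
For each gene list the points are the log2 fold changes of its tested members in cDC1 (Xbp1-Ire1 KO minus Xbp1 KO), coloured by whether they rose, fell or did not pass, with a bar at the list's median; the dashed line is the median of all tested genes, and values below −3 or above 5 are drawn at the edge. The medians of IRE1 substrates (2.72) and of ATF4 and CHOP targets (1.31) lie highest among the pathway lists, and those of immediate early (−0.87) and maturation genes (−0.73) lowest.

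Among MHC class I presentation genes 6 of 21 rose, Tapbp included, and 1 fell (median 0.31); the number that fell was 0 by limma-voom, without Xbp1 KO replicate 1, Xbp1 KO replicate 2, Xbp1-Ire1 KO replicate 1, Xbp1-Ire1 KO replicate 2 or Xbp1-Ire1 KO replicate 3. The one that fell was Nlrc5, a transactivator of class I genes, and Calr, Canx and Pdia3, which rose, are also on the chaperone list. H2-T23, the nonclassical molecule Qa-1, rose from 175 ± 11.4 to 404 ± 21.6 CPM (SD, n = 3, 1.21 ± 0.13, adjusted p = 4.48e-05). The abundant H2-K1 and B2m, for the heavy and light chains, did not pass: H2-K1 differed by −0.24 ± 0.15 (95% interval −0.56 to 0.09) and B2m by 0.39 ± 0.15 (0.07 to 0.72). H2 genes have near-identical copies, so their counts are uncertain where reads could be split.

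In MHC class II presentation 2 of 16 rose and 1 fell (median −0.17); the number that rose was 1 without Xbp1 KO replicate 1, Xbp1 KO replicate 2, Xbp1-Ire1 KO replicate 1 or Xbp1-Ire1 KO replicate 3, and the number that fell was 2 with no filter, 5 by DESeq2 and 6 with the compared groups alone. The called share of this list was 18.8%, beside 12.7% of all tested genes. H2-DMb1, a chain of the peptide exchanger, rose by 1.06 ± 0.11 (adjusted p = 2.04e-05). H2-Eb2, a minor beta chain, fell from 15.1 to 3.68 CPM (−2.05 ± 0.35, adjusted p = 0.00206), and H2-Ab1, a main beta chain, differed by 0.15 ± 0.14 (95% interval −0.16 to 0.45).

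Lysosomal genes moved upward where they changed: 10 of 38 rose and none fell (median 0.09). The number that rose was 6 without Xbp1 KO replicate 1, and the number that fell was 2 by DESeq2 and 1 with a replicate block. Lamp1, an abundant lysosomal membrane glycoprotein, gave 58.9, 58.9 and 32.7 CPM in Xbp1 KO against 247, 222 and 224 CPM in Xbp1-Ire1 KO, beside 356, 215 and 325 CPM in WT (2.20 ± 0.23, adjusted p = 2.93e-05). Gm2a, the GM2 activator, rose from 1459.8 to 3944 CPM (1.43 ± 0.14, adjusted p = 1.48e-05), below its WT mean of 6619 CPM. Tpp1, a lysosomal peptidase, rose by 1.89 ± 0.21 and Grn, for progranulin, by 1.13 ± 0.18. Psap, the saposin precursor, did not pass (0.74 ± 0.26, adjusted p = 0.0767), though it did by DESeq2 (adjusted p = 0.0206), with no filter (0.0162) and with the compared groups alone (4.92e-04).

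Sterol synthesis genes, which SREBP2 induces, rose where they changed. Of 25 tested, 13 rose and none fell (median 0.68), a number that was 7 without Xbp1 KO replicate 2 and 8 without Xbp1 KO replicate 1 or Xbp1-Ire1 KO replicate 3. In 12 of the 25 the Xbp1 KO mean was over 2-fold below WT, and in Xbp1-Ire1 KO all 25 lay within 2-fold of WT. Mean log2 CPM over the list was 3.92 to 4.05 in Xbp1 KO, 4.75 to 5.00 in Xbp1-Ire1 KO and 4.80 to 5.28 in WT, so the knockouts did not overlap.

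Srebf2, the gene of SREBP2, gave 86.0, 83.9 and 79.9 CPM in Xbp1 KO against 289, 388 and 303 CPM in Xbp1-Ire1 KO, beside 388, 369.8 and 221 CPM in WT (1.97 ± 0.19, adjusted p = 1.99e-05). Fdps, which makes farnesyl diphosphate, rose by 1.71 ± 0.18, Cyp51, a lanosterol demethylase, by 1.49 ± 0.17 and Sqle, the squalene epoxidase, by 1.32 ± 0.16. Of 16 LXR targets 1 rose and 2 fell (median −0.23); the number that rose was 2 with the compared groups alone, and the number that fell was 1 without Xbp1 KO replicate 2, Xbp1-Ire1 KO replicate 1 or Xbp1-Ire1 KO replicate 3 and 4 without Xbp1-Ire1 KO replicate 2. The called share of LXR targets was 18.8%, beside 12.7% of all tested genes. The lowered ones were Mylip and Apoe, the apolipoprotein, whose call was lost without Xbp1 KO replicate 2, Xbp1-Ire1 KO replicate 1 or Xbp1-Ire1 KO replicate 3 (adjusted p = 0.0855 to 0.119). The raised one was Srebf1, for SREBP1 (0.84 ± 0.17, adjusted p = 0.00632), and Mylip, the ubiquitin ligase IDOL, fell by 0.91 on the log2 scale (adjusted p = 0.00418).

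Genes of homeostatic maturation, the program by which cDC1 acquire CCR7 and migrate without infection, mostly fell where they changed. Of 52 tested, 18 fell and 2 rose, with a median log2 fold change of −0.73. The number that fell was 6 without Xbp1 KO replicate 1 or Xbp1-Ire1 KO replicate 1, 10 without Xbp1-Ire1 KO replicate 2, 11 without Xbp1 KO replicate 2 and 28 with the compared groups alone, and the number that rose was 0 without Xbp1 KO replicate 2 and 1 without Xbp1 KO replicate 1 or Xbp1-Ire1 KO replicate 3. Those that rose were Ccl22, a chemokine, and Ebi3, a cytokine subunit. Mean log2 CPM over the list was 5.43 to 5.82 in Xbp1 KO, 4.54 to 5.21 in Xbp1-Ire1 KO and 5.62 to 6.56 in WT. Xbp1-Ire1 KO means lay over 2-fold below WT for 28 of the 52, and Xbp1 KO means for 16.

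Ccr7, the chemokine receptor that leads mature dendritic cells to lymph nodes (ENSMUSG00000037944; GRCm38 chromosome 11, 99144196 to 99155077), gave 644, 445 and 395 CPM in Xbp1 KO against 117, 70.9 and 182 CPM in Xbp1-Ire1 KO. The groups did not overlap, and WT lay at 843, 376 and 1329.9 CPM. Its log2 fold change was −2.01 ± 0.40, adjusted p = 0.00562.

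Apol7c, an apolipoprotein L induced in maturing cDC1, gave 512, 467 and 826 CPM in Xbp1 KO against 170.2, 129.5 and 235 CPM in Xbp1-Ire1 KO, beside 1060.3, 808 and 952 CPM in WT (−1.76 ± 0.24, adjusted p = 3.24e-04). Tmem176b, a transmembrane protein of dendritic cells, fell by 1.41 on the log2 scale (adjusted p = 0.00455). The activation markers Cd83 and Cd86 did not pass. Cd83 differed by −1.06 ± 0.42 with a wide 95% interval of −1.97 to −0.15, and passed with no filter (adjusted p = 0.0167), with the compared groups alone (0.00229) and with a replicate block (0.0407). Cd86 differed by −0.22 ± 0.14 (−0.52 to 0.07).

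NF-kappaB subunits and feedback genes had 6 of 20 members that fell and none that rose (median −0.37), a number that was 2 without Xbp1 KO replicate 1 or Xbp1-Ire1 KO replicate 1 and 3 without Xbp1-Ire1 KO replicate 2. Nfkbia, the inhibitor IκBα that NF-kappaB itself induces, fell from 324, 257 and 318 to 156, 126 and 168 CPM (adjusted p = 0.00248, 95% interval of the log2 fold change −1.37 to −0.62). Tnfaip3, the ubiquitin-editing enzyme A20, differed by −1.03 ± 0.19 (adjusted p = 0.00357), and Tnf, an inflammatory cytokine, by −1.79 ± 0.30 (adjusted p = 0.002). Both fell.

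Immediate early genes fell alongside these lists: 15 of 26 fell and none rose, with a median of −0.87. Egr1, a zinc-finger transcription factor of this class, gave 2797, 2673 and 2716 CPM in Xbp1 KO against 697, 1458 and 945 CPM in Xbp1-Ire1 KO, beside 1816, 2114 and 1195 CPM in WT (−1.40 ± 0.24, adjusted p = 0.0023). Egr2 fell by 1.43, Btg2 by 1.35, Junb by 0.84, Zfp36 by 0.89 and Dusp1 by 0.99 on the log2 scale. The list's library means did not overlap between the knockouts, as given in the opening values, and the part of these genes in the differences of the maturation and NF-kappaB lists was not tested.

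In the BCL2 family, which controls mitochondrial cell death, 4 of 15 rose and 3 fell (median 0.38); the number that rose was 1 without Xbp1 KO replicate 1, Xbp1 KO replicate 2 or Xbp1-Ire1 KO replicate 1, 7 with no filter or with the compared groups alone and 8 by DESeq2. Bax, a pore-forming death effector, rose by 0.63 ± 0.12 (adjusted p = 0.00409). Bcl2l11, the death activator BIM, fell from 82.4 ± 14.2 to 38.1 ± 6.23 CPM (SD, n = 3, −1.11 ± 0.18, adjusted p = 0.00135), and Mcl1, a survival protein, fell by 0.67 on the log2 scale (adjusted p = 0.00468).

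Transcripts that define cDC1 changed in part. Of 27 tested, 8 fell and 2 rose (median −0.23); the number that fell was 5 without Xbp1 KO replicate 1, Xbp1 KO replicate 2, Xbp1-Ire1 KO replicate 1 or Xbp1-Ire1 KO replicate 3. Tlr3, the sensor of double-stranded RNA, gave 925, 909 and 780.4 CPM in Xbp1 KO against 492, 557 and 541 CPM in Xbp1-Ire1 KO (−0.72 ± 0.12, adjusted p = 0.00166), the latter near WT at 493, 559.8 and 548 CPM. The sort marker Xcr1 and the dead-cell receptor Clec9a were among those that fell, but each lost its call in 5 of the fits that left out 1 library (adjusted p = 0.0693 to 0.10 and 0.0578 to 0.128). Cadm1, an adhesion molecule of cDC1, fell by 0.61 and Cd207, the lectin langerin, by 1.21 on the log2 scale. Naaa, a lysosomal amidase, rose by 1.64 ± 0.14. Batf3, the transcription factor on which cDC1 depend, was named after its values were seen and differed by 0.12 ± 0.14 (95% interval −0.18 to 0.42). Of 21 cDC2 transcripts tested in these cells 1 rose and 2 fell (median −0.49), so 14.3% were called, beside 12.7% of all tested genes. The number that rose was 0 without Xbp1 KO replicate 1 or Xbp1-Ire1 KO replicate 3 and 2 without Xbp1-Ire1 KO replicate 2. The number that fell was 1 by limma-voom or without Xbp1-Ire1 KO replicate 1.

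Proliferation genes were higher in part. Of 32 cell cycle genes 9 rose and none fell (median 0.75), a number that was 2 without Xbp1 KO replicate 1, 4 without Xbp1 KO replicate 2 or Xbp1-Ire1 KO replicate 2 and 18 with no filter or with the compared groups alone. Tyms, the thymidylate synthase, rose from 18.9 ± 1.58 to 42.7 ± 5.48 CPM (SD, n = 3, 1.18 ± 0.21, adjusted p = 0.00256), and Ccnb2, a mitotic cyclin, by 0.87 ± 0.17. Mki67, the proliferation antigen, named after its values were seen, did not pass (−0.77 ± 0.50, adjusted p = 0.347). In cDC2 the same list had a median of 0.75 with 0 members called. Interferon-stimulated genes had 1 of 28 that rose and none that fell (median 0.28), the one being Bst2, the tetherin; the number that rose was 2 with no filter or with the compared groups alone and 3 by DESeq2. In glycolysis none of 18 changed (median 0.19).

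Markers of other cells were summed in each library, without scaling. Neutrophil markers, 8 of which were tested, summed to 6.60 to 17.95 CPM in Xbp1 KO and 27.71 to 86.12 CPM in Xbp1-Ire1 KO, erythroid markers to 3.30 to 4.01 and 11.54 to 51.27 CPM, NK cell markers to 116 to 155 and 182 to 226 CPM, plasmacytoid dendritic cell markers to 93.6 to 171 and 178 to 222 CPM, and platelet markers to 5.75 to 11.3 and 14.6 to 16.8 CPM. These sums were higher in all 3 Xbp1-Ire1 KO libraries. The plasmacytoid sum includes Cox6a2, which rose. Among the 12 tested members of that list, 3 had a log2 fold change above 0, and the median was −0.39. The higher plasmacytoid sum is therefore not a rise of the list's members as a set. Monocyte markers were lower, at 3132 to 4141 and 1539 to 2294 CPM, a sum that is mostly Nr4a1, which is also an immediate early gene. T cell (4.58 to 9.47 and 6.14 to 12.1 CPM), B cell (55.0 to 65.9 and 50.8 to 86.0 CPM), plasma cell (22.8 to 97.7 and 54.1 to 66.8 CPM) and red pulp macrophage markers (181 to 966 and 206 to 788 CPM) overlapped between the groups. Of 2 globin genes of erythroid cells, Hba-a1 was at 0 in all compared libraries. The other, Hbb-bs, lay at 0.0911 to 0.169 CPM in Xbp1 KO and 0.323 to 0.617 CPM in Xbp1-Ire1 KO. The part of these markers of other cells in the results above was not tested.

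Of the tested members of these lists, 0 of 5 T cell, 0 of 7 B cell, 0 of 2 NK cell, 0 of 13 red pulp macrophage and 0 of 4 platelet markers passed, with medians of 0.74, 0.18, 1.13, −0.41 and 1.08. Of 5 plasma cell markers 1 rose (Derl3, median −0.82) and of 12 plasmacytoid markers 2 rose (Bst2 and Cox6a2, median −0.39). The called share was 16.7% for plasmacytoid and 12.5% for neutrophil markers, beside 12.7% of all tested genes. Of 8 neutrophil markers 1 rose (Ltf, median 3.05), a number that was 0 without Xbp1-Ire1 KO replicate 2, 2 with a stricter filter, 3 by limma on the deposited log2 values and 4 with no filter, with the compared groups alone, with a replicate block or without Xbp1 KO replicate 2, and of 4 erythroid markers 2 rose (Slc4a1 among them, median 3.24), a number that was 0 by limma-voom and 1 by limma on the deposited log2 values, with a stricter filter, without Xbp1 KO replicate 1, Xbp1 KO replicate 2, Xbp1 KO replicate 3 or Xbp1-Ire1 KO replicate 2. The low-count filter let through 3 to 11 neutrophil and 2 to 8 erythroid markers over these fits. Of 11 monocyte markers 3 fell (Cd14, Ace and Treml4, median −0.09), a number that was 1 without Xbp1 KO replicate 1, Xbp1 KO replicate 2, Xbp1-Ire1 KO replicate 1 or Xbp1-Ire1 KO replicate 2, and of 2 pancreatic acinar markers tested 1 fell (Cela1, median −5.01), a call lost by limma-voom, by limma on the deposited log2 values, with a replicate block and without Xbp1 KO replicate 3, Xbp1-Ire1 KO replicate 1 or Xbp1-Ire1 KO replicate 3. The filter let through other numbers of acinar markers in other fits: 5 of 8 tested fell without Xbp1 KO replicate 1 or without Xbp1 KO replicate 2, and 21 of 22 with no filter. By DESeq2 0 acinar markers were called lower, Cela1 included.

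Levels in WT are set beside these changes as a description, since the WT comparisons use the same knockout libraries; means were compared after adding 0.5 CPM. Of all tested genes 94.5% lay within 2-fold of WT in Xbp1-Ire1 KO and 93.4% in Xbp1 KO. Of the 810 raised genes 584 (72.1%) lay within 2-fold of WT in Xbp1 KO and 209 over 2-fold below it, and in Xbp1-Ire1 KO 714 (88.1%) lay within 2-fold of WT and 94 over 2-fold above it. Of the 627 lowered genes 576 (91.9%) lay within 2-fold of WT in Xbp1 KO, and in Xbp1-Ire1 KO 532 (84.8%) did and 95 lay over 2-fold below. Both shares in Xbp1-Ire1 KO are below that of all tested genes.

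The same pair of genotypes in cDC2, in 6 other libraries, showed few changes. Of 11646 tested genes 4 were called (0.0343%), with 960 at an unadjusted p under 0.05 and 11 called by DESeq2. The count was 2 without cDC2 Xbp1 KO replicate 1, Xbp1-Ire1 KO replicate 1 or Xbp1-Ire1 KO replicate 3 and 8 without Xbp1-Ire1 KO replicate 2. Itgb2 lay at 735, 762 and 695 CPM in cDC2 of Xbp1 KO and at 1169.6, 1191 and 1183 CPM in cDC2 of Xbp1-Ire1 KO, without overlap (log2 fold change 0.69 ± 0.10, adjusted p = 0.0332), so it rose in both cell types. The other 3 were Adamdec1, a metalloprotease-like protein at 0 CPM in the 3 Xbp1 KO libraries and 7.30, 4.20 and 5.69 CPM in Xbp1-Ire1 KO, and Lsm12 and Arf2, described below. Other substrates did not pass there: Bloc1s1 differed by 0.37 ± 0.17, Hgsnat by −0.01 ± 0.14 and Tapbp by 0.11 ± 0.16.

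Whether the effect differed between the cell types was tested as an interaction over all 19 libraries. It passed for 261 of 12185 genes (2.14%), of which 219 had risen in cDC1, 35 had fallen there and 7 were uncalled there. Of the 796 genes that rose in cDC1 and were tested in both cell types, 218 (27.4%) passed the interaction. Of the 616 that fell 35 (5.68%) did, beside 258 of all 10967 genes tested in both (2.35%). Both sets were chosen by their change in cDC1 libraries that the interaction also uses. Higher shares than over all genes thus follow in part from that choice and do not measure specificity to cDC1. For the raised genes the cDC2 median log2 fold change was 0.13 with 71.2% above 0, and for the lowered genes it was −0.14 with 22.1% above 0, beside 0.00 and 50.5% for all 10967 genes tested in both. For Itgb2 the difference of effects was 3.98 (adjusted p = 1.33e-10), for Slc1a5 3.24 (adjusted p = 6.32e-08) and for Apol7c −1.63 (adjusted p = 0.00779). Ccr7 had a log2 fold change of −0.36 ± 0.45 in cDC2, and its difference between cell types did not pass (adjusted p = 0.299).

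**Figure D5:**
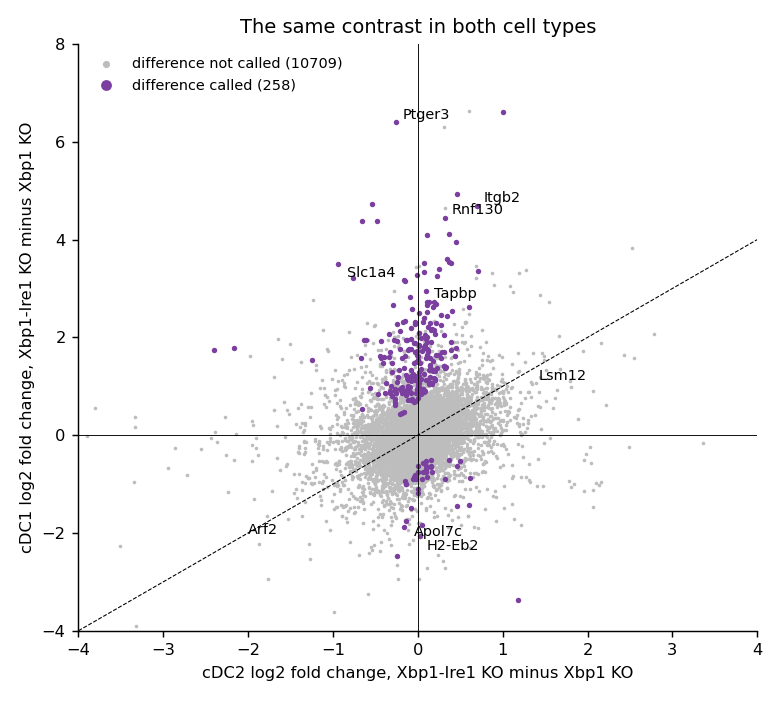
Each point is 1 of the 10967 genes tested in both cell types, by its log2 fold change (Xbp1-Ire1 KO minus Xbp1 KO) in cDC2 (horizontal) and in cDC1 (vertical); the 258 coloured points passed the interaction test, and 6 points lie outside the axes. The coloured points spread along the vertical cDC1 axis, most of them on its positive side.

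Genes near Ern1 on chromosome 11 follow. Of 91 tested genes within 5 Mb of Ern1, 21 were called (23.1%), 9 higher and 12 lower, beside 12.7% of all tested genes and 7.31% to 17.8% of the genes of single chromosomes other than Y, where 0 of 4 were called. Ern1 itself is among the 91 and among the 9 higher. Grn, Slc4a1 and Ace, given above with other lists, are also called genes of this window. In cDC2 2 of 89 passed. Arf2, a small GTPase (chromosome 11, 103966739 to 103985337), gave 93.0, 76.4 and 76.9 CPM in Xbp1 KO cDC1 against 26.5, 23.9 and 24.5 CPM in Xbp1-Ire1 KO (−1.72 ± 0.16, adjusted p = 1.30e-05), and it fell in cDC2 as well (−1.53 ± 0.21, adjusted p = 0.0194). Lsm12, an RNA-binding protein (chromosome 11, 102162497 to 102185296), rose by 1.05 ± 0.13 in cDC1 and by 1.34 ± 0.15 in cDC2 (adjusted p = 0.00335). Cyb561, a cytochrome of the same region (chromosome 11, 105933702 to 105953336), differed by −2.23 ± 0.44 in cDC1, where it fell, and by −1.87 ± 0.91 in cDC2 (adjusted p = 0.614).

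The lowered genes with the largest changes elsewhere included Sult1a1, a sulfotransferase, from 35.9, 35.6 and 37.6 CPM in Xbp1 KO to 6.73, 4.80 and 7.44 CPM in Xbp1-Ire1 KO (−2.53 ± 0.29, adjusted p = 7.18e-05). Cldn1, a tight junction claudin, fell from 41.0 to 11.2 CPM (−1.88 ± 0.25, adjusted p = 3.58e-04), and Myo6, an unconventional myosin, from 72.0 ± 5.58 CPM (SD, n = 3) by 1.64 on the log2 scale (adjusted p = 9.90e-06). For all 3 the Xbp1 KO mean was the highest of the 3 genotypes.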

How the data were processed

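Per the file headers, the deposited count tables hold raw read counts for 24421 gene symbols, 1 column per library. The authors also deposited log2 normalized values for 11059 genes in cDC1, used only in 1 alternative. Per the submitters' processing notes, genome mm10 was used, with TopHat2 2.1.0, Trimmomatic 0.35, FastQC 0.11.4, limma 3.42.2 and SAMtools 0.1.19. How reads were counted, with what strand setting and annotation, is not given in the sources used here, so reads of overlapping or antisense genes may not be told apart. Each library was sorted from 5000 to 50000 cells, per the labels.

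edgeR 4.0.16 (R 4.3.3) served for the tests on counts: filterByExpr (minimum count 10, minimum total 15), TMM scaling, and the quasi-likelihood F test over all 9 cDC1 libraries with Benjamini-Hochberg adjustment. The 10 cDC2 libraries, and all 19 for the interaction, were fitted likewise. Standard errors were approximated from the F statistic, as |log2 fold change| / √F, and intervals are 95%. No replicates of a group agreed within counting noise. The pipeline was checked on simulated counts. Alternatives were DESeq2 1.42.0, its size factors, limma-voom and limma on the deposited log2 values (limma 3.58.1), no filter, a minimum count of 50, a replicate block, the compared groups alone, and each library left out. Where 1 library is left out, the fit pools the spread over the groups.

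The compared groups, the 36 gene lists and the tests were chosen with earlier results of these data known, so lists are described by counts and medians with no test. Genes named are Ern1, Xbp1, the 20 genes of each direction with the largest changes and the 10 of each with the highest level (mean log2 CPM of at least 3, groups not overlapping), up to 8 called and 4 uncalled members of each list, the 10 smallest adjusted p-values in cDC2 and in the interaction, and called genes within 5 Mb of Ern1; not all are printed (a few are not reported here), and exceptions are stated.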

Additional observations from a re-analysis of the deposited data

Results flagged for a closer look

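For 60 of the genes named, the effect of the added loss of IRE1 differed between cDC1 and cDC2 by edgeR's interaction test with Benjamini-Hochberg adjustment. Many of these genes were named for their change in cDC1, and some for a small p-value in the interaction itself. Their number is therefore no measure of how common such differences are. Of the 12185 genes given to the interaction, 261 passed (2.14%). The values are the log2 fold change in cDC1 minus that in cDC2. Among IRE1 substrates the differences were Itgb2 3.98, Bloc1s1 3.74, Hgsnat 3.27, Tapbp 2.6, Erp44 2.51 and Ergic3 2.07. Among other strongly raised genes the differences were Rnf130 4.11, Pbxip1 3.96, Fcrla 4.86, Tmem238 4.45, Fam134c 3.48, Cd81 2.93, Fgl2 2.62, Cox6a2 3.17, Ptger3 6.64, Notch4 1.99 and Naaa 1.4. Among sensors the differences were Ern1 1.16 and Atf6b 1.29. Among ATF4 and CHOP targets and synthetases the differences were Trib3 4.08, Ddit3 2.34, Cebpb 2, Slc1a5 3.24, Slc1a4 3.32, Slc7a5 1.32, Slc7a11 2.28, Phgdh 1.42, Sesn2 1.36, Pck2 1.24 and Sars 0.704. Among ER folding genes the differences were Calr 0.801, Pdia3 0.935, Pdia4 1.08, Pdia6 0.845, P4hb 1.16, Hyou1 1.74, Dnajb11 2, Tmx3 1.55 and Creld2 1.04. Among genes of the translocon, glycosylation and ER-associated degradation the differences were Spcs3 0.799, Rpn1 2.24, Rpn2 1.14, Alg1 2.91, Derl3 2.46 and Man1b1 0.945. Among MHC and lysosomal genes the differences were H2-T23 1.2, H2-DMb1 1.03, H2-Eb2 −2.1, Lamp1 2.07, Gm2a 1.28, Tpp1 1.91 and Grn 1.23. Among sterol genes the differences were Srebf2 2.03, Fdps 1.41, Cyp51 1.49 and Sqle 1.13. Among maturation, survival and immediate early genes the differences were Apol7c −1.63, Nfkbia −0.878, Bcl2l11 −1.12 and Zfp36 −0.858. The differences below 0 are those of H2-Eb2, Apol7c, Nfkbia, Bcl2l11 and Zfp36, and the others are above 0. Those below 0 belong to genes that fell in cDC1 and were not called in cDC2. Trib3 did not pass the filter on low counts in cDC2, so its value rests on few cDC2 counts. Ptger3 was near 0 in Xbp1 KO cDC1, so its value depends on the fit's small added count.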

How the results depend on the processing

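Calls in cDC1 numbered 2239 with the compared groups alone (1077 higher, 1162 lower) and 648 to 1297 with 1 library left out, beside 1437. In cDC2 they numbered 11 by DESeq2 and 2 to 8 with 1 library left out, beside 4, and for the interaction 462 by DESeq2, 392 with the compared groups alone and 194 to 261 with 1 library left out, beside 261. With a replicate block the counts were 1376 in cDC1, 3 in cDC2 and 249 for the interaction. The block and the replicate numbers follow the sample titles, which differ in part from the numbers in the column names. Libraries with the same title number had correlated deviations of 0.00779, 0.234 and 0.109 in cDC1 and 0.0191, 0.228 and 0.176 in cDC2. They are thus not shown to be paired, and not every library correlated best with its own number. By column names Xbp1-Ire1 KO replicate 3 of cDC1 shares its number with Xbp1 KO replicate 2, and their correlation was −0.129. Of 114 genes named as called in cDC1, 96 kept their call wherever the 14 alternatives gave a value. The 18 that lost it in at least 1 were Ace, Apoe, Canx, Ccl22, Cd14, Cela1, Clec9a, Dnajc3, Ebi3, Eif2ak3, Ltf, Nlrc5, Per1, Sec11c, Slc4a1, Slc7a11, Spcs2 and Xcr1. Of 19 named as uncalled, 5 were called in an alternative: Psap and Cd83 as given above, and Atf3, Hspa5 and B2m with the compared groups alone. Among lists with no lowered member, the compared groups alone gave 3 lowered lysosomal, 2 ATF4 and CHOP, 1 ER-associated degradation and 1 interferon-stimulated gene, and glycolysis then had 2 raised. By DESeq2 2 lysosomal, 1 ER-associated degradation and 2 plasmacytoid genes were lowered, and glycolysis had 1 raised. A replicate block gave 1 lowered lysosomal gene. With 1 library left out, at most 1 lysosomal, 1 plasmacytoid and 1 red pulp macrophage gene were lowered. Galnt10, uncalled, ranged from −0.17 to 0.20 with 1 library left out and turned below 0 without Xbp1 KO replicate 1 (−0.00), Xbp1 KO replicate 3 (−0.02) or Xbp1-Ire1 KO replicate 2. Sparc, also uncalled, ranged from −0.28 to 0.48, below 0 without Xbp1-Ire1 KO replicate 1, and Slc3a2 from −0.027 to 0.028, below 0 without Xbp1 KO replicate 3 or Xbp1-Ire1 KO replicate 3 (−0.00). The cause was not tested. Totals of 10.98 to 16.21 in units of 1e6 counts limit what can be seen of genes at a few CPM.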
